A study of Homo sapiens with 6 samples.

Results

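The proteasome genes were taken as the genes of the deposited table whose symbol is PSM, a letter from A to G and a number. The rule found 46 of 26025 genes, of which 17 encode subunits of the core particle (PSMA and PSMB), 24 encode subunits, chaperones and activators of the regulatory particles (PSMC, PSMD and PSME), and 5 encode the inhibitor PSMF1 and the assembly chaperones PSMG1 to PSMG4. All 46 passed the filter of a mean of at least 10 normalized counts and were tested. RNA was sequenced from NCI-H1299, an established line of human non-small cell lung carcinoma, in 3 libraries of the Ctrl group and 3 of the NE group. Cells of both groups were grown with 10% FBS, kept in DMEM for 8 to 12 h and then held for 48 h in RPMI-1640 with 2% FBS, and the NE group received 10 µM norepinephrine (NE), a stress hormone that signals through adrenergic receptors. The vehicle of the Ctrl group is called DMSO in one label and PBS in another. The comparison asks how NE changed gene expression in 1 cell line. Nothing in the labels says that the 3 libraries of a group came from separate cultures, so the p-values measure the spread between these libraries, which may be technical.

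The proteasome is the protease that degrades proteins marked with ubiquitin. Its core particle, the 20S barrel, is built of outer rings of alpha subunits, which form the gate, and inner rings of beta subunits, of which PSMB5, PSMB6 and PSMB7 cut the substrate. The 19S regulatory particle caps the barrel. Its ATPases (PSMC) unfold the substrate, and its other subunits (PSMD) bind and remove ubiquitin. In cells exposed to interferon, PSMB8, PSMB9 and PSMB10 take the place of the catalytic subunits and form the immunoproteasome. Transcription of the subunit genes is known to be driven by the transcription factor NFE2L1 when the proteasome is impaired, through the antioxidant response element.

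The libraries held between 16852751 and 17979206 reads on genes. Ctrl replicate 3 stood apart, with 7305 genes at 0 against 3954 to 4833 in the other 5 libraries. Its difference from Ctrl replicate 1 ran with the GC content of the exons (Spearman rho −0.52 across 14955 genes), and so did the difference between NE and Ctrl (−0.64). Results are therefore given also after a correction for GC content and without that library. The epithelial keratins KRT8 and KRT18 lay between 186 and 968 FPKM (fragments per kilobase, scaled to library size) and VIM between 1340 and 2060 FPKM, whereas KRT19 reached at most 0.368 FPKM. Of 6 fibroblast and endothelial markers (COL1A1, COL1A2, DCN, PECAM1, VWF and CDH5) and the leukocyte marker CD68, none exceeded 0.313 FPKM in any library, and COL1A2, CDH5, DCN and CD68 were at 0 in 1 or more libraries.

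Proteasome genes were mostly lower with NE. Calls rest on limma, with a threshold of 0.05 on the p adjusted by Benjamini-Hochberg over the 15013 genes tested, and 25 of the 46 fell, 5 rose and 16 did not pass. Over all genes tested, 25.5% were called lower and 24.6% higher. The median log2 fold change of the 46 genes was −0.51, against 0.01 for all genes. With a fold change of at least 2 asked as well, 5 genes were lower and 0 higher, against 6.55% and 7.47% of all genes. In bulk RNA, fewer cells that express a gene and less RNA of that gene per cell cannot be told apart. Every NE library lay below every Ctrl library for 26 genes and above for 6, while the corresponding shares of all genes were 28.9% and 29.7%.

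After the correction for GC content, 31 of the 46 genes were lower and 1 was higher, against 18.9% and 12.9% of the 14955 genes fitted. Without Ctrl replicate 3, 28 were lower and 9 higher, against 32.6% and 31.8% of all genes. With both changes together, 40 were lower, against 23.4% of all genes, and 1 was higher, against 2843 of 14955 genes. The gene that was higher in both of these GC-corrected fits was PSME4. The split between falls and rises among the genes called thus moved from 25 and 5 to 31 and 1 with the GC correction.

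The counts of 6 genes are uncertain, because other annotated genes cover more than 50% of the exons of their canonical transcript (GENCODE v44). For PSMA1, PSMA2, PSMA6 and PSMB10 the other gene is on the same strand, where no strand setting could separate the reads. For PSMC1 and PSMD7 it is on the opposite strand, and the strand setting of the counting is not given in the sources used here. For PSMA2 the cover was 100%, by a gene on the same strand, and for PSMC1 83.2% lay under NRDE2 on the opposite strand. Among the other 40 genes, 23 fell and 5 rose, where 25.5% and 24.6% of all genes did, and the median log2 fold change was −0.56. Their core members numbered 13, of which 11 fell, and their regulatory members 22, of which 9 fell.

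The core and regulatory particles were then set side by side. Of 17 core genes, 12 fell and 1 rose, with a median log2 fold change of −0.70, and of 24 regulatory genes, 10 fell and 4 rose, with a median of −0.47. The shares over all genes were 25.5% lower and 24.6% higher. Set against the mean of the Ctrl libraries, the median core gene stood at −0.66, −0.71 and −0.67 in NE replicates 1 to 3 and between −0.09 and 0.06 in the Ctrl libraries. The median regulatory gene stood at −0.49, −0.31 and −0.36 in the NE libraries and between −0.03 and 0.04 in the Ctrl libraries. In each NE library the core median was thus the lower of the pair. After the GC correction the medians were −0.78 for the core and −0.37 for the regulatory genes, with 13 of 17 and 14 of 24 genes lower, against 18.9% of all genes. Without inducible subunits, chaperones and activators, the medians were −0.53 for 14 constitutive 20S and −0.43 for 17 19S subunits. After the GC correction they were −0.73 and −0.36. Within the 20S barrel, the alpha subunits had a median of −0.30, above that of the regulatory genes, and the beta subunits had −0.89. The alpha median is the value of PSMA6, whose count is uncertain, as are those of PSMA1 and PSMA2. Over the alternatives the alpha median ran from −0.538 to −0.109. The 14 constitutive 20S genes include the same uncertain ones. After the GC correction the alpha and beta medians were −0.54 and −0.75. All these medians describe the genes, and no test of the differences was run.

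**Figure D1:**
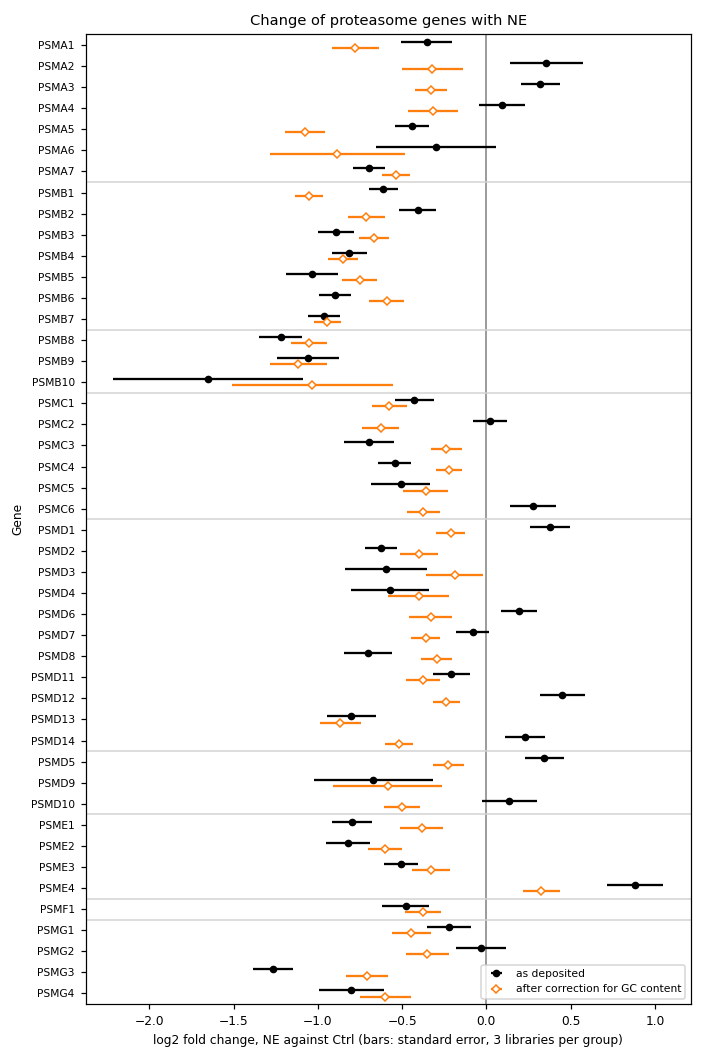
Log2 fold change (NE against Ctrl) with its standard error for each of the 46 genes, with 3 libraries per group, as deposited (black) and after correction for GC content (orange). All 7 constitutive beta subunits lie left of 0 on both scales, and PSMA3, PSMD1, PSMD12 and PSMD5 move from right to left of it.

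Among the 7 alpha subunits, which form the outer rings and gate of the barrel, 2 fell and 1 rose. The shares over all genes, 25.5% lower and 24.6% higher, stand beside this and the later counts by role. After the GC correction 4 alpha subunits were lower and 0 higher, against 18.9% and 12.9% of all genes. PSMA7 had the highest level of the ring, with a mean of 208 FPKM in Ctrl. Its normalized counts were 3762, 3622 and 3438 in Ctrl and 2282, 2125 and 2261 in NE libraries. The groups were well separated, and each was tight. PSMA7 fell by 38.4% in the mean, with a log2 fold change of −0.70 ± 0.09 (SE) and an adjusted p of 0.000489 in limma, and the value was −0.54 after the GC correction. PSMA5 gave 1894, 2053 and 1978 normalized counts in Ctrl and 1360, 1438 and 1570 in NE, again without overlap. Its log2 fold change was −0.44 ± 0.10 (SE, limma adjusted p = 0.00645), and −1.08 after the GC correction.

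PSMA3 was the alpha subunit that was higher with NE, at 896, 852 and 1054 normalized counts in Ctrl and 1151, 1142 and 1192 in NE. All NE libraries lay above Ctrl, with Ctrl replicate 3 the nearest to them. The log2 fold change was 0.32 ± 0.12 (SE, limma adjusted p = 0.044), and it turned to −0.33 (adjusted p = 0.0242) after the GC correction. Of the 6 fits that left out 1 library, it passed only in that without Ctrl replicate 3 (adjusted p = 0.00107), and the others gave adjusted p from 0.0911 to 0.177. PSMA1, PSMA2, PSMA4 and PSMA6 did not pass, with log2 fold changes between −0.36 and 0.36. PSMA6 was the lowest core gene, with 16.8 to 30.4 normalized counts per library. That level is uncertain, since another gene on the same strand covers 81.4% of its exons.

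All 7 constitutive beta subunits fell, with log2 fold changes from −1.035 to −0.41. After the GC correction all 7 were again lower. Over the other alternatives 6 or 7 of them were called lower and 0 higher, except that with the 2-fold criterion 1, PSMB5, was. PSMB5, which carries the chymotrypsin-like activity that bortezomib blocks, lies on chromosome 14 from 23016543 to 23035230 on the minus strand (hg38). It gave 1907, 1969 and 1374 normalized counts in Ctrl and 767, 868 and 900 in NE libraries. Ctrl replicate 3 was the lowest of its group and still above every NE library. PSMB5 fell by 51.7% in the mean, with a log2 fold change of −1.035 ± 0.15 (SE, limma adjusted p = 0.000711), and −0.75 after the GC correction.

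PSMB6, the caspase-like subunit, gave 2097, 2115 and 2189 normalized counts in Ctrl and 1166, 1128 and 1139 in NE libraries. Both groups were tight and far apart. On the log2 scale PSMB6 changed by −0.90 ± 0.09 (SE, limma adjusted p = 0.000177), and −0.59 after the GC correction. PSMB7, the trypsin-like subunit, on chromosome 9 from 124353465 to 124415444 on the minus strand (hg38), gave 6475, 6985 and 6025 normalized counts in Ctrl and 3252, 3416 and 3302 in NE. The means were 6495 ± 481 and 3323 ± 84.0 (SD, n = 3), and no NE library came near the Ctrl range. The log2 fold change of PSMB7 was −0.96 ± 0.10 (SE, limma adjusted p = 0.000146). It was −0.94 after the GC correction, on a gene whose exons have 48.4% GC.

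The non-catalytic beta subunit PSMB1 had the highest level of the inner rings, with a mean of 406 FPKM in Ctrl. It gave 6383, 6481 and 6660 normalized counts in Ctrl and 4195, 4234 and 4349 in NE libraries, again without overlap. The gene's log2 fold change of −0.61 ± 0.09 (SE, limma adjusted p = 0.000643) became −1.05 after the GC correction. PSMB2, PSMB3 and PSMB4 also fell, with log2 fold changes of −0.41, −0.89 and −0.81. PSMB2 missed the threshold without Ctrl replicate 2 (limma adjusted p = 0.0591).

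The inducible subunits PSMB8, PSMB9 and PSMB10 fell as well. PSMB8 and PSMB9 are neighbours in the class II region of the major histocompatibility complex, on chromosome 6 from 32840717 to 32844679 and from 32844136 to 32859851 (hg38), on opposite strands. PSMB8 gave 985, 966 and 898 normalized counts in Ctrl and 360, 408 and 457 in NE libraries. Every NE library was far below every Ctrl library. PSMB8 fell by 57.0% in the mean, with a log2 fold change of −1.22 ± 0.13 (SE, limma adjusted p = 0.000169), and −1.05 after the GC correction.

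PSMB9 gave 332, 299 and 236 normalized counts in Ctrl and 150, 114 and 149 in NE libraries, without overlap and with Ctrl replicate 3 the lowest of its group. On the log2 scale PSMB9 changed by −1.06 ± 0.19 (SE, limma adjusted p = 0.00162). PSMB10, whose count is among the uncertain ones, was sparse, at 189, 216 and 75.5 normalized counts in Ctrl and 17.8, 79.4 and 65.8 in NE libraries. Ctrl replicate 3 lay below NE replicate 2, so the groups overlapped. The gene's log2 fold change of −1.65 ± 0.56 (SE) passed narrowly (limma adjusted p = 0.0348) and did not after the GC correction (−1.03, adjusted p = 0.126). Leaving out 1 library at a time, PSMB10 passed without Ctrl replicate 3 (adjusted p = 0.00122) and without NE replicate 2 (0.0274), and missed without each of the other 4, at 0.05 to 0.112.

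Each inducible subunit was set against the constitutive one it replaces, as a ratio of FPKM. PSMB8 stood at 48.0%, 45.6% and 60.7% of PSMB5 in Ctrl and at 43.6%, 43.6% and 47.1% in NE libraries. NE replicate 3 lay above Ctrl replicate 2, so the ranges overlapped. PSMB9 stood at 12.8%, 11.4% and 8.74% of PSMB6 in Ctrl and at 10.4%, 8.21% and 10.6% in NE libraries. PSMB10 stood at 2.93%, 3.11% and 1.26% of PSMB7 in Ctrl and at 0.551%, 2.34% and 2.01% in NE libraries. Both ranges overlapped too. The PSMB10 ratio rests on an uncertain count, since another gene on the same strand covers 56.1% of the exons of PSMB10. The log2 ratios differed between NE and Ctrl by −0.19, −0.17 and −0.72, with two-sided exact permutation p-values of 0.2, 0.4 and 0.5 and a Benjamini-Hochberg adjusted p of 0.5 for each of the 3 ratios. The smallest p that 3 against 3 libraries allow is 0.1, so this test could not pass a threshold of 0.05. The PSMB10 to PSMB7 difference was −0.089 after the GC correction, which was made on log2(normalized count + 1) and not on FPKM. On FPKM, the PSMB10 to PSMB7 difference was −0.059 without NE replicate 1 and −1.137 without Ctrl replicate 3. The PSMB8 to PSMB5 difference on FPKM was −0.064 without Ctrl replicate 3.

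Of the 6 ATPases of the 19S base, which form the ring that unfolds substrates, 4 fell and 0 rose, with a median log2 fold change of −0.47. PSMC3 gave 3721, 3401 and 2489 normalized counts in Ctrl and 1969, 2019 and 1851 in NE libraries. Ctrl replicate 3 was again the lowest of its group, and the groups did not overlap. The log2 fold change of −0.70 ± 0.15 (SE, limma adjusted p = 0.00413) shrank to −0.24 (adjusted p = 0.0756) after the GC correction. PSMC4, the ATPase with the highest level at a mean of 247 FPKM in Ctrl, gave 8229, 8127 and 7059 normalized counts in Ctrl and 5155, 5459 and 5407 in NE, also without overlap. The fitted log2 fold change was −0.54 ± 0.10 (SE, limma adjusted p = 0.00196), and −0.22 (adjusted p = 0.0536) after the GC correction.

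PSMC5 gave 3751, 3447 and 2267 normalized counts in Ctrl and 1991, 2296 and 2223 in NE libraries. NE replicate 2 lay above Ctrl replicate 3, so the groups overlapped. Its log2 fold change was −0.51 ± 0.18 (SE, limma adjusted p = 0.0383), and −0.36 (adjusted p = 0.066) after the GC correction. Among the fits that left out 1 library, PSMC5 passed only in that without Ctrl replicate 3 (adjusted p = 9.89e-06), and the others gave 0.0754 to 0.132. PSMC1 fell too, at −0.43, but missed the threshold without Ctrl replicate 1, Ctrl replicate 2 or NE replicate 1 (adjusted p = 0.0562, 0.0685 and 0.0515 in limma). PSMC2 and PSMC6 had log2 fold changes of 0.02 and 0.28 and did not pass.

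Of the 11 other subunits of the 19S particle, which include ubiquitin receptors and the deubiquitinase PSMD14, 3 fell, 2 rose and 6 did not pass. These shares, 27.3% lower and 18.2% higher, lie near the 25.5% and 24.6% over all genes. After the GC correction 7 were lower and 0 higher, against 18.9% and 12.9% of all genes. PSMD13, a lid subunit, gave 1890, 1772 and 1347 normalized counts in Ctrl and 863, 961 and 1023 in NE libraries. All NE libraries were lower. On the log2 scale PSMD13 changed by −0.80 ± 0.15 (SE, limma adjusted p = 0.00187), and −0.87 after the GC correction. PSMD8, another lid subunit and the one with the highest level at a mean of 402 FPKM in Ctrl, gave 12039, 12442 and 8577 normalized counts in Ctrl and 6379, 6942 and 6733 in NE. The groups did not overlap, and Ctrl replicate 3 lay between the other Ctrl libraries and NE. The log2 fold change of −0.70 ± 0.14 (SE, limma adjusted p = 0.00345) became −0.29 after the GC correction.

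PSMD2, a large scaffold subunit of the base, gave 9335, 9170 and 10180 normalized counts in Ctrl and 6612, 6083 and 5898 in NE libraries. Here Ctrl replicate 3 was the highest of all 6 libraries. On the log2 scale PSMD2 changed by −0.63 ± 0.10 (SE, limma adjusted p = 0.000894), and −0.40 after the GC correction.

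The scaffold partner of PSMD2, PSMD1, was higher with NE, as was the lid subunit PSMD12. Both are named because they passed, after their values were seen. PSMD1 gave 2387, 2312 and 2818 normalized counts in Ctrl and 3567, 3245 and 2931 in NE libraries, and PSMD12 gave 1709, 1822 and 2357 in Ctrl and 2785, 2631 and 2557 in NE. Ctrl replicate 3 was the highest Ctrl library for both genes and stayed just under the lowest NE library. The log2 fold changes were 0.375 ± 0.12 for PSMD1 and 0.45 ± 0.13 for PSMD12 (SE, limma adjusted p = 0.0262 and 0.0185). They turned to −0.21 (adjusted p = 0.0891) and −0.24 (adjusted p = 0.044) after the GC correction, on genes with 39.7% and 37.2% GC in their exons. Leaving out 1 library at a time, both passed only without Ctrl replicate 3 or NE replicate 3, and missed in the other 4 fits with adjusted p up to 0.108 for PSMD1 and 0.0739 for PSMD12.

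PSMD3, PSMD4, PSMD6, PSMD7, PSMD11 and PSMD14 did not pass, with log2 fold changes from −0.60 for PSMD3 to 0.23 for PSMD14. For PSMD3 and for PSMD4, a ubiquitin receptor, the Ctrl replicate 3 value lay within the NE range and far below the other Ctrl libraries. PSMD3 gave 2804, 2721 and 1397 normalized counts in Ctrl and 1284, 1558 and 1540 in NE libraries. Without Ctrl replicate 3 both were called lower, at −0.925 and −0.88 (limma adjusted p = 3.15e-06 and 4.04e-06).

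Of the 3 chaperones that assemble the 19S base, 1 rose and 2 did not pass. PSMD5 gave 1460, 1491 and 1809 normalized counts in Ctrl and 1906, 2005 and 2109 in NE libraries, higher in all 3. The gene's log2 fold change of 0.34 ± 0.12 (SE, limma adjusted p = 0.0332) turned to −0.23 (adjusted p = 0.0862) after the GC correction, and of the fits that left out 1 library only that without Ctrl replicate 3 passed, the others giving adjusted p from 0.0543 to 0.125. PSMD10, also called gankyrin, had the highest level of the chaperones at a mean of 48.3 FPKM in Ctrl. It gave 1099, 1086 and 1640 normalized counts in Ctrl and 1325, 1409 and 1393 in NE libraries, so that Ctrl replicate 3 was the highest of all. The log2 fold change of PSMD10 was 0.14 ± 0.16 (SE, limma adjusted p = 0.501), and −0.50 (adjusted p = 0.00593) after the GC correction. PSMD9 had a log2 fold change of −0.67 and did not pass.

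Of the 4 activators, which open the gate of the barrel in place of the 19S cap, 3 fell and 1 rose. PSME4, also called PA200, is a single large protein found mainly in the nucleus, and its gene lies on chromosome 2 from 53864069 to 53970993 on the minus strand (hg38). It gave 1094, 1134 and 1620 normalized counts in Ctrl and 2687, 2243 and 2100 in NE libraries. All NE libraries were above Ctrl, with Ctrl replicate 3 the nearest to them. PSME4 was 82.7% higher in the mean, with a log2 fold change of 0.88 ± 0.17 (SE, limma adjusted p = 0.00226), and it passed in each of the 6 fits that left out 1 library. After the GC correction the log2 fold change was 0.33 ± 0.11 (SE, adjusted p = 0.0467). It did not pass at 0.25 with GC and length corrected, or at 0.33 with the GC correction and a replicate block.

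PSME1 and PSME2 encode the interferon-inducible 11S activator and are neighbours on chromosome 14, from 24136163 to 24138967 and from 24143362 to 24147570 (hg38). PSME1 gave 2025, 2066 and 2147 normalized counts in Ctrl and 1062, 1173 and 1373 in NE libraries, and PSME2 gave 1371, 1474 and 1145 in Ctrl and 676, 766 and 811 in NE. Neither gene's groups overlapped. The log2 fold changes were −0.80 ± 0.12 and −0.82 ± 0.13 (SE, limma adjusted p = 0.000732 and 0.00106), and −0.385 and −0.60 after the GC correction. PSME3, the nuclear 11S activator, fell with a log2 fold change of −0.51.

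The proteasome inhibitor PSMF1, also called PI31, gave 3443, 3706 and 2564 normalized counts in Ctrl and 2360, 2285 and 2245 in NE libraries. The NE libraries were the lower, with Ctrl replicate 3 close above them. The fitted log2 fold change was −0.48 ± 0.14 (SE, limma adjusted p = 0.0185), and of the fits that left out 1 library it passed in that without Ctrl replicate 3 alone, with adjusted p from 0.0501 to 0.0809 in the others. Of the 4 chaperones that assemble the core particle, 2 fell. PSMG3 gave 1345, 1293 and 1294 normalized counts in Ctrl and 479, 588 and 569 in NE libraries. The groups were far apart and both were tight.

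PSMG3 fell by 58.4% in the mean, with a log2 fold change of −1.27 ± 0.12 (SE, limma adjusted p = 0.000108), the smallest adjusted p of the 46 genes. The value was −0.71 after the GC correction, on exons with 59.6% GC. PSMG4, its partner in the assembly pathway, gave 545, 587 and 374 normalized counts in Ctrl and 248, 276 and 329 in NE libraries, without overlap. Its log2 fold change was −0.80 ± 0.19 (SE, limma adjusted p = 0.00734). PSMG1 and PSMG2 did not pass, at −0.22 and −0.03.

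The change with NE ran with exon GC content among these genes. Spearman's rho between GC content and log2 fold change was −0.82 across the 46 genes, −0.84 across the 17 core genes and −0.84 across the 24 regulatory genes. These are descriptions across genes that share the same 6 libraries, and genes are not independent replicates. The 46 genes spanned 35.1% to 63.0% GC, and PSMD14 and PSMB10 were the ends of that range. Their median GC content was 47.3%, against 47.5% for all genes tested, and the core and regulatory medians were 47.3% and 46.7%. The part of GC content in the direction of single genes was not tested beyond the correction.

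Promoters of the genes were read for the antioxidant response element, TGACNNNGC, because NFE2L1 and NFE2L2 bind it. RefSeq (GRCh38.p14) held a promoter, from 250 bases before to 50 after the start, for 40 of the 46 genes. The genes without one were PSMA7, PSMB1, PSMB6, PSMB7, PSMD4 and PSMG3, and all of them but PSMD4 fell. The element was found on either strand in 15 of the 40 (37.5%), against 19.3% of the promoters of 10481 genes tested and 16.1% of all 27305 promoters. It was present in 4 of the 5 genes that rose, 6 of the 20 that fell and 5 of the 15 that did not pass. The 4 were PSMD1, PSMD5, PSMD12 and PSME4, and all but PSME4 turned negative after the GC correction. No test of this split was run. By particle it was present in 3 of 13 core and 10 of 23 regulatory promoters. Windows of 49 bases around the element are shown for 3 genes that were higher and 2 that were lower with NE, each 5′ to 3′ on the strand of its gene with the element in capitals. In PSME4 the element is read on the other strand.
PSMD12 at chr17:67366714-67366762 (minus strand): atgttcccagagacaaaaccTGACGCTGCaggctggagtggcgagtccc
PSMD5 at chr9:120843028-120843076 (minus strand): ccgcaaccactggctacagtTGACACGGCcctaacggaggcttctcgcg
PSME4 at chr2:53970999-53971047 (minus strand): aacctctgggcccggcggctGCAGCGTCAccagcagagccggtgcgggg
PSMB3 at chr17:38752617-38752665 (plus strand): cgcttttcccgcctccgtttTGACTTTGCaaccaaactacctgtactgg
PSME1 at chr14:24136088-24136136 (plus strand): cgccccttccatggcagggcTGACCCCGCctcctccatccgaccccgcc

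A match is a description of the letters and not a site of binding. The cAMP response element TGACGTCA, which the factor CREB binds, was in 0 of the 40 promoters, against 3.8% of the promoters of tested genes. Its shorter form TGACG, which lies within TGACGTCA and can overlap TGACNNNGC, was in 45.0% of the 40 against 40.5%, CCAAT was in 47.5% against 43.0%, and the ETS motif CCGGAAG was in 35.0% against 22.1%, each on both strands.

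In a list of 30 other genes of the ubiquitin-proteasome system, 9 were higher, 8 lower and 13 did not pass, close to the shares of 24.6% and 25.5% over all genes, and the median log2 fold change was −0.02. After the GC correction 4 were higher and 10 lower, against 12.9% and 18.9%. NFE2L1, the factor that raises subunit transcription, gave 6476, 6327 and 4235 normalized counts in Ctrl and 6027, 5486 and 5344 in NE libraries. The NE libraries lay within the Ctrl range. The fitted log2 fold change was 0.01 ± 0.16 (SE, limma adjusted p = 0.971), and 0.49 (adjusted p = 0.00615) after the GC correction. DDI2, the protease that activates the NFE2L1 protein, rose by 0.73 ± 0.125 on the log2 scale (SE, limma adjusted p = 0.00148) and stood at 0.31 (adjusted p = 0.0368) after the correction, and it did not pass at 0.20 with GC and length corrected. NGLY1, which removes the sugars of NFE2L1, had a log2 fold change of 0.24 (limma adjusted p = 0.086). After the correction it was lower, at −0.37 (adjusted p = 0.0293).

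NFE2L2, the related factor of the oxidative stress response, also called NRF2, gave 1113, 1050 and 1371 normalized counts in Ctrl and 3078, 2878 and 2973 in NE libraries. All 3 NE libraries were far above Ctrl. The gene's log2 fold change of 1.345 ± 0.12 (SE, limma adjusted p = 9.85e-05) was the highest of the 30 genes, and it was 0.92 after the GC correction.

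Of the factors that work directly on the particle, the ubiquitin receptor ADRM1 gave 2767, 2704 and 2045 normalized counts in Ctrl and 1300, 1315 and 1233 in NE libraries, with every NE library below Ctrl. The fitted log2 fold change was −0.95 ± 0.13 (SE, limma adjusted p = 0.000543), and −0.31 after the GC correction. The core maturation protein POMP had −0.15 (adjusted p = 0.3) and −0.77 after the correction. The small lid subunit SEM1 had −0.10 (adjusted p = 0.802), and −0.72 (adjusted p = 0.137) after the correction. The deubiquitinases of the particle, USP14 and UCHL5, had 0.31 and 0.40 (adjusted p = 0.073 and 0.119), and both turned negative after the correction, at −0.28 and −0.29.

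Among the rest of the list, UBA6, a ubiquitin-activating enzyme, gave 566, 620 and 1155 normalized counts in Ctrl and 1884, 1428 and 1300 in NE libraries, higher in all 3 although Ctrl replicate 3 came close. Its log2 fold change was 1.04 ± 0.26 (SE, limma adjusted p = 0.0087), and 0.29 (adjusted p = 0.19) after the correction. The ubiquitin ligase UBE3A rose by 0.65 (adjusted p = 0.0148) and stood at −0.02 after the correction. Without Ctrl replicate 2 or NE replicate 1, UBE3A missed the threshold (limma adjusted p = 0.0534 and 0.0712). UBA6 missed it without NE replicate 1 (limma adjusted p = 0.0503). PAAF1, which binds the 19S ATPases, fell by 0.78 on the log2 scale (adjusted p = 0.00122) and stood at −1.04 after the correction. ZFAND2A, a stress-induced partner of the proteasome, fell by 0.70 (adjusted p = 0.00292) and stood at −0.40 (adjusted p = 0.0442) after the correction. The polyubiquitin gene UBB fell by 0.615 (adjusted p = 0.00157) and RPS27A, which encodes ubiquitin fused to a ribosomal protein, fell by 0.58 (adjusted p = 0.0037). After the correction UBB and RPS27A stood at −0.34 and −0.77.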

How the data were processed

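The authors aligned reads to hg38 with HISAT2 2.0.5 and counted them per gene with featureCounts 1.5.0-p3, per the submitters' processing notes. The annotation and strand setting are not given in the sources used here. The deposited values are described as FPKM, but in the deposited table the signal is the read count of each gene over its library's size factor (0.9549 to 1.0944), since 100% of the values are whole multiples, within 0.01, of what 1 read is worth. Such values are called normalized counts here. Columns were assigned to groups by the group letters and numbers of their names.

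In R 4.3.3, limma 3.58.1 (lmFit, eBayes with trend) was run on log2(value + 1) over genes whose mean reached 10 normalized counts, with Benjamini-Hochberg adjustment over all 15013 genes. The fold changes are on that scale, which understates changes of low genes. Values printed after ± are SE from limma unless marked SD. FPKM were recomputed from the recovered reads and the canonical transcript length of GENCODE v44, and GC content came from merged exons of 25813 matched genes. Merged exons can be far longer than the canonical transcript, as for PSMD1 (15795 against 3323 bases). The GC content of such a gene, and so its correction, need not be that of the canonical transcript. The GC correction subtracted from each library a natural spline fit (5 degrees of freedom). Alternatives were other pseudocounts and filters, quantile scaling, recomputed FPKM, GC and length correction, eBayes without trend, a replicate block, voom, edgeR 4.0.16, DESeq2 1.42.0, each library left out and a 2-fold criterion. The GC correction without Ctrl replicate 3 was chosen after seeing the data. On simulated data over 14805 genes, limma recovered 6.0%, 56.2% and 86.2% of genes changed by 0.5, 1 and 1.5 on the log2 scale and called 7 unchanged genes. Without molecular identifiers, counting error sets only a floor under the true error.

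The members and lists were chosen with earlier results of these data known. Every member is named. Values in every library are given, within each role, for up to 3 called genes with the largest change, for the catalytic subunits and for the gene with the highest FPKM. Of the 30 other genes, 9 chosen by role and up to 6 called are named with their fold changes. Of the genes first listed, 2 are not reported here.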

Additional observations from a re-analysis of the deposited data

How the results depend on the processing

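The 25 lower proteasome genes became 5 with the 2-fold criterion and 40 with the GC correction without Ctrl replicate 3, and the 5 higher ones became 0, 1 with the GC correction (with or without Ctrl replicate 3), 0 with GC and length, 1 without the trend, 3 with the replicate block and 0 with the block and GC correction. Leaving out each library gave 1 to 9 higher genes, the 9 without Ctrl replicate 3. Of the 30 other genes, the 9 higher became 4 (GC), 3 (GC and length), 2 (block and GC), 2 (2-fold) and 5 to 12 with a library left out, 5 without NE replicate 1, and the 8 lower became 5 (quantile scaling), 5 (block and GC) and 0 (2-fold).

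The median log2 fold change of all proteasome genes moved to −0.367 with quantile scaling, −0.372 with recomputed FPKM, −0.454 with GC and length, and −0.587 to −0.425 with a library left out. The core median moved to −0.755 with a minimum mean of 50, −0.554 (quantile), −0.561 (FPKM), −0.777 (GC, with and without the block) and −0.84 (GC without Ctrl replicate 3). The regulatory median moved to −0.309 (quantile), −0.33 (FPKM), −0.367 (GC, with and without the block), −0.331 (GC and length), −0.381 (GC without Ctrl replicate 3) and −0.496 to −0.318 with a library left out. Core minus regulatory, −0.231, moved to −0.41 (GC, with and without the block), −0.333 (GC and length), −0.459 (GC without Ctrl replicate 3) and −0.4 to −0.17 with a library left out. After the GC correction, made on log2(normalized count + 1), the differences of the log2 ratios were −0.299 (PSMB8 to PSMB5), −0.525 (PSMB9 to PSMB6) and −0.089 (PSMB10 to PSMB7). On FPKM with a library left out, these differences ran from −0.27 to −0.064, −0.324 to −0.047 and −1.137 to −0.059.

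Log2 fold changes that reversed under the GC correction (with or without the block), GC and length, and GC without Ctrl replicate 3 were those of PSMA3 (−0.327, −0.192 and −0.349), PSMD5 (−0.226, −0.147 and −0.217), PSMD10 (−0.503, −0.359 and −0.418), PSMD1 (−0.212, −0.324 and −0.219), PSMD12 (−0.239, −0.211 and −0.225), NGLY1 (−0.372, −0.428 and −0.465), USP14 (−0.283, −0.287 and −0.245) and UCHL5 (−0.287, −0.309 and −0.188). UBE3A gave −0.021 and −0.145 under the first pair. NFE2L1 gave −0.001 in voom, −0.026 in edgeR, −0.01 in DESeq2 and −0.19 to 0.116 with a library left out. SEM1 gave 0.039 with recomputed FPKM and −0.475 to 0.111 with a library left out. With the GC correction and without Ctrl replicate 3, SEM1 gave −1.204 and newly passed. The cause of these shifts was not tested.

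Libraries with the same number did not deviate together (correlations −0.163, 0.08 and −0.151). No pairing by number was thus seen, but deviations within groups of 3 libraries cannot exclude one. The replicate block left 23 lower genes. The median log2 fold change of all genes was 0.138 with recomputed FPKM and 0.122 without the filter. With 3 libraries per group, changes of 0.5 on the log2 scale were mostly missed in the simulation, which held few changed genes. In the data, PSMA5 passed at −0.442. Over the named genes, 675 of the single-gene values under an alternative kept their direction and side of the threshold, 84 no longer passed, 17 newly passed and 44 reversed.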
